A study of Arabidopsis thaliana with 9 samples.

Results

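The genes described here are encoded in the chloroplast genome of Arabidopsis thaliana and serve photosynthesis, carbon fixation, protein and RNA metabolism of the plastid. They were taken from 4 deposited lists of changed genes as every entry on the chloroplast genome other than RPS19, RPL16, RPL22, RPL14, RPS3, RPOA, RPS15 and RPS18. This gave 48 genes of 56 listed chloroplast genes and of 2507 genes in all 4 lists. RNA was sequenced from whole seedlings (leaf, stem and root) of the Columbia wild type, of RNAi line RNAi-1 with a construct against SRT1 and of line OX-SRT1-1, which overexpresses SRT1. Each group had 3 libraries from plants 14 days old, grown without any other treatment named in the labels, and each transgenic group was 1 line. The deposited tables name these groups ox5, r5 and col, and the labels do not say what the number stands for. SRT1 encodes a nuclear sirtuin, an NAD-dependent protein deacetylase. The study asks how seedling transcripts differ between each line and wild type.

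The chloroplast genome descends from that of a cyanobacterium. It encodes core subunits of photosystem II and photosystem I, which use light to move electrons, of the cytochrome b6f complex between them, of the ATP synthase, and of the NDH complex, a chloroplast relative of respiratory complex I that returns electrons from photosystem I. Most of its genes are transcribed in units of several genes, by a bacterial-type polymerase whose core is encoded in the plastid and by a phage-type polymerase encoded in the nucleus. The remaining subunits of these complexes come from nuclear genes.

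The deposited values are FPKM (fragments scaled to transcript length and to the mapped fragments of the library), with 1 value per group and gene and no value per library. No SD, interval or test of a group difference could therefore be computed here, and depth is unknown. Whether a gene differed was decided by the authors' deposited tables, which hold only genes with a fold of at least 2 and a q-value of at most 0.0496. The SRT1 transcript itself was 6.05 FPKM in OX against 1.75 FPKM in wild type, 3.46-fold higher. In the RNAi tables it stood in the list titled lower. There it was 2.37 FPKM in the column labelled RNAi against 0.419 FPKM in the column labelled wild type. By these column labels SRT1 was higher in RNAi, which goes against the title of the list and the RNAi label of the line. Its log2 ratio in the authors' deposited table, -2.37, also differed from the -2.50 that its own FPKM values give, the 1 such mismatch in the 4 lists. The 2 RNAi lists also carry opposite labels. Where the title says higher, wild type is named for the first column and RNAi for the second. Where it says lower, these names are swapped. The list titled lower holds 377 genes, and 377 genes of the RNAi tables were higher in the first column. Title and column labels of that list thus disagree for its genes in general and not for SRT1 alone.

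The second columns were therefore compared with the wild-type column of the OX tables, for the chloroplast genes themselves. Over the 47 chloroplast genes listed in both comparisons, the log2 ratio of the second OX-table column over the second RNAi-table column had a median of 0.08 and ran from 0.06 to 0.10. For the first columns the median was -1.86 and the range -5.62 to 0.07. Over all 585 genes listed in both comparisons the median for the second columns was also 0.08, and 572 lay within 0.1 of it. Of the 13 that did not, 12 had loci typed in another format and 1 was SRT1, whose second-column value was 4.18-fold higher in the OX table than in the RNAi table. The match thus held for the chloroplast genes and not for SRT1, so SRT1 does not settle which column is which. The second column of all tables is called the shared column below, and the first column of the RNAi tables the unmatched column. All chloroplast genes stood in the list whose second column is labelled RNAi. By that label they were higher in RNAi, and by the match of the second columns the unmatched column, in which they were lower, is not wild type. Which libraries stand behind the unmatched column is not settled by these values, so its results are given as a column of the tables and the direction for the RNAi line is uncertain.

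In OX, 48 of 48 chloroplast genes were lower than in the shared column and 0 were higher, where 42.3% of all 1966 genes listed for OX were lower. A gene entered these lists only when the authors called it changed, so this is a count of listed genes and not of the chloroplast genome. The median fold was 22.5, with quartiles of 16.5 and 32.3, against a median of 2.49 for the 745 nuclear genes and 5.32 for the 31 mitochondrial genes listed as lower. A fold of at least 10 was seen for 45 of the 48, where 4.48% of all genes listed for OX were lower by that much. The 48 genes summed to 377 FPKM in OX against 12736 FPKM in the shared column, 33.8-fold lower. All 31 mitochondrial genes listed for OX were lower too and 0 were higher. They summed to 81.3 FPKM in OX against 1217 FPKM in the shared column. In seedlings, fewer green cells, less chloroplast RNA per cell and differing selection of polyadenylated RNA between libraries cannot be told apart from such values. None of these was tested.

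The RNAi tables listed 47 of the 48 chloroplast genes, and 47 of 47 were lower in the unmatched column than in the shared column, where 66.5% of all 1126 genes listed there were lower. The median fold was 4.88, with quartiles of 3.95 and 6.74, against 2.42 for the 673 nuclear and 2.80 for the 21 mitochondrial genes on the same side. A fold of at least 5 was seen for 22 of the 47, where 7.19% of all genes listed in the RNAi tables were lower by that much. The q-value in the authors' deposited table was 0.00176 for PSBZ, 0.00132 for PSAC and 0.0002 for the other 45. A fold of at least 10 was seen for 3 of the 47, against 1.69% of all genes listed there. The summed level was 2717 FPKM in the unmatched column and 11354 FPKM in the shared column, 4.18-fold apart. The second columns of the OX and RNAi tables hold nearly proportional values for these genes, so a low or high value there enters both folds.

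**Figure D1:**
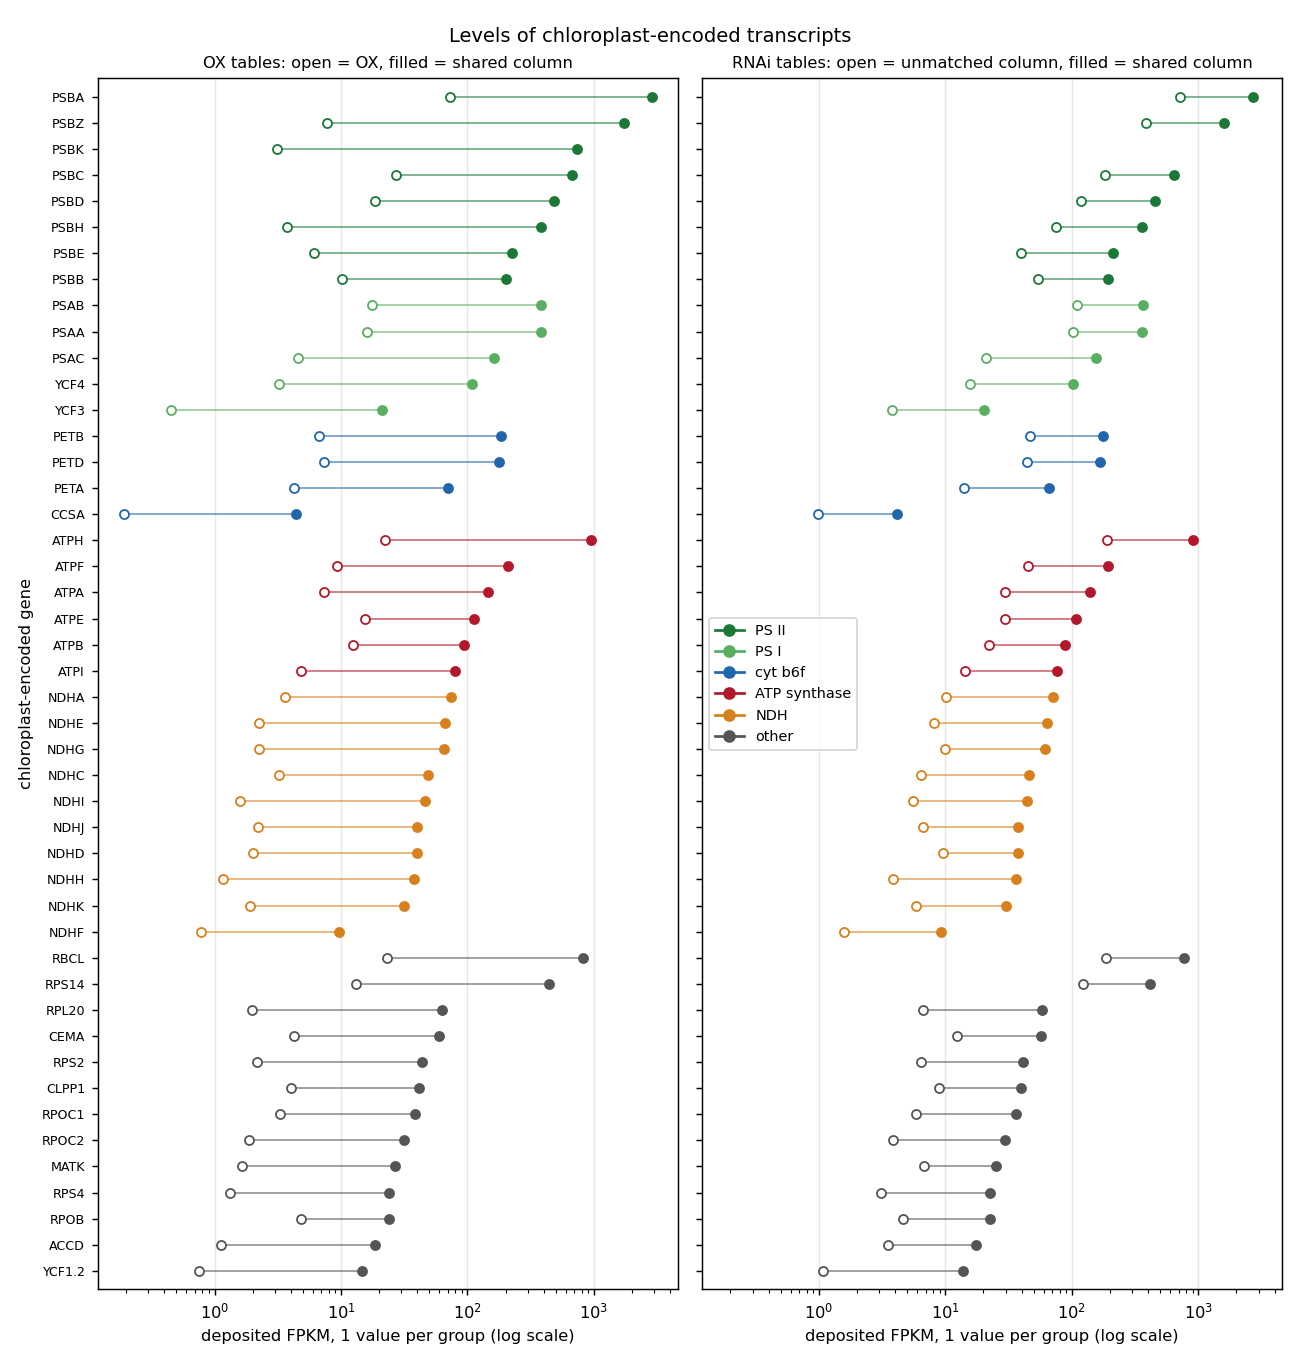
Deposited FPKM of chloroplast-encoded genes named in the text on a log axis, 1 value per group and no error, with open points for OX (left) or the unmatched column of the RNAi tables (right) and filled points for the shared column, coloured by complex. The open point lies left of the filled one for every gene drawn, and the OX points run from 0.192 FPKM (CCSA) to 72.9 FPKM (PSBA), while PSBK is absent on the right because it was not listed there.

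The 3 largest folds in OX were those of PSBK, PSBZ and PSBH, small photosystem II subunits with short genes. Their coding sequences are shown because the genes that stand furthest from the rest are also the shortest members, and their whole length is printed so that this can be seen. They were read from the RefSeq chloroplast genome of TAIR10.1 on the plus strand, where the gene boundaries equal the deposited loci, with start and stop codons in capitals. PSBK lies at 7017 to 7202, PSBZ at 35751 to 35939 and PSBH at 74485 to 74706 of the chloroplast genome, with lengths of 186, 189 and 222 bases.
PSBK: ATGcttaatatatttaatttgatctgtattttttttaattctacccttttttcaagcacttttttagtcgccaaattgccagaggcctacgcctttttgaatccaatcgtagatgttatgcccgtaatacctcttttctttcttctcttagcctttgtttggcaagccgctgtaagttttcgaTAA
PSBZ: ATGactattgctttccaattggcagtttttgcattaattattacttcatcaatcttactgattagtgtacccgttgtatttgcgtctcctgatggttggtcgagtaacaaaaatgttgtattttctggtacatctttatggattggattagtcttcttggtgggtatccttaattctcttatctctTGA
PSBH: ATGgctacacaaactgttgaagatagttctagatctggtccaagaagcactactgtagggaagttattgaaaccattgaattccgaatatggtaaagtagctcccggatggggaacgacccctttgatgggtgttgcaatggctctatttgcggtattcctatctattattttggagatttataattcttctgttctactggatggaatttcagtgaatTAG

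Photosystem II had 8 listed genes, all lower in OX, with a median fold of 37.7. PSBK had 3.10 FPKM in OX against 728 FPKM in the shared column, 235-fold lower, with a q-value of 0.0149 in the authors' deposited table. PSBZ was 7.82 against 1713 FPKM, 219-fold lower, and PSBH 3.72 against 381 FPKM, 102-fold lower. These 3 small-subunit transcripts were thus among the lower levels of the complex in OX although PSBZ and PSBK were among the highest in the shared column. PSBA, which encodes the D1 reaction centre protein, had the highest level of all chloroplast genes in both columns, 72.9 FPKM in OX and 2858 FPKM in the shared column, 39.2-fold lower. PSBE, for the alpha subunit of cytochrome b559, was 6.17 against 223 FPKM, 36.2-fold lower. The 3 other large subunits had smaller folds. PSBD, which encodes the D2 reaction centre protein, was 18.7 against 481 FPKM, 25.7-fold lower. PSBC, which encodes the inner antenna protein CP43, was 27.4 against 671 FPKM, 24.5-fold lower. PSBB, which encodes the other inner antenna protein CP47, was 10.3 against 202 FPKM, 19.7-fold lower. PSBD and PSBC share 1 deposited locus, 32711 to 35141, and the reading frames overlap, so their separate values are uncertain.

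The 7 photosystem II genes in the RNAi tables lay close together, with folds from 3.52 to 5.35 and a median of 3.83, the lowest median of the 6 classes. PSBA was 711 FPKM in the unmatched column against 2701 FPKM in the shared column, 3.80-fold lower. PSBZ, at 385 against 1608 FPKM, was 4.18-fold lower and PSBH, at 74.7 against 358 FPKM, 4.80-fold lower. PSBZ and PSBH, which stood apart in OX, were therefore within the range of the other listed photosystem II genes here, and PSBK has no value in these tables. PSBE, at 39.6 against 212 FPKM, had the highest fold of the complex. PSBC, at 182 against 640 FPKM, had the lowest. PSBB and PSBD were 3.55-fold and 3.83-fold lower.

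Photosystem I was represented by 3 subunits and 2 assembly factors, with a median fold of 33.8 in OX. PSAA and PSAB encode the reaction centre pair, and their levels were alike, 16.1 and 17.7 FPKM in OX against 379 and 384 FPKM in the shared column, 23.5-fold and 21.7-fold lower. PSAC, which carries terminal iron-sulphur clusters, was 4.58 against 162 FPKM, 35.4-fold lower. The assembly factor genes were at lower levels than the subunit genes, and their folds were above those of PSAA and PSAB. YCF3 was 0.454 against 21.2 FPKM, 46.7-fold lower with a q-value of 0.00808 in the authors' deposited table. The deposited YCF3 locus spans 1168 bp where the annotated gene spans 2008 bp, so its value does not cover the whole annotated span. YCF4 was 3.21 against 108 FPKM, 33.8-fold lower. The core pair again had the smallest folds of the class in the RNAi tables, 3.52 for PSAA, at 102 against 358 FPKM, and 3.30 for PSAB, at 110 against 364 FPKM. YCF3 was 5.36-fold, YCF4 6.47-fold and PSAC 7.38-fold lower, PSAC at 20.9 against 154 FPKM.

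The cytochrome b6f complex had 3 listed subunit genes, and CCSA, needed to attach haem to c-type cytochromes, was placed with them. In OX the median fold was 23.5. PETB, which encodes cytochrome b6, was 6.66 against 185 FPKM, 27.7-fold lower. PETD, which encodes subunit IV, was 7.33 against 177 FPKM, 24.1-fold lower. PETA, which encodes cytochrome f, was 4.22 against 69.7 FPKM, 16.5-fold lower. CCSA had the lowest level of all 48 genes in both columns, 0.192 FPKM in OX and 4.38 FPKM in the shared column, so its 22.8-fold difference rests on the smallest values, with a q-value of 0.00207 in the authors' deposited table. This class had the narrowest range of folds in the RNAi tables, from 3.76 for PETD to 4.65 for PETA, with CCSA at 0.977 against 4.16 FPKM.

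For the ATP synthase, 6 of 6 annotated chloroplast genes were listed. Their median fold in OX was 18.1, but single genes spread widely. ATPH, for the subunit that forms the membrane ring, had the highest level, 22.4 against 939 FPKM, and was 41.9-fold lower. ATPF, which encodes a subunit of the stalk, was 9.34 against 208 FPKM, 22.2-fold lower. ATPA, which encodes the alpha subunit of the catalytic head, was 7.39 against 146 FPKM, 19.7-fold lower. ATPI, which encodes the membrane subunit beside the ring, was 4.83 against 79.4 FPKM, 16.5-fold lower. ATPB and ATPE, which encode the beta and epsilon subunits, had the smallest folds of the photosynthetic classes. ATPB was 12.5 against 93.3 FPKM, 7.46-fold lower, and ATPE 15.4 against 113 FPKM, 7.36-fold lower. Both are assigned to 1 locus, 52265 to 54156, so their values are not separate measurements. The 6 folds in the RNAi tables lay between 3.64 for ATPE and 5.34 for ATPI, and ATPH, at 188 against 904 FPKM, was 4.80-fold lower.

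The NDH complex had 10 listed genes of 11 annotated, all at modest levels of 9.67 to 74.7 FPKM in the shared column and 0.779 to 3.62 FPKM in OX. The median fold in OX was 20.1. NDHH, at 1.17 against 38.1 FPKM, was 32.7-fold lower, the highest of the class. NDHF, at 0.779 against 9.67 FPKM, was 12.4-fold lower, the lowest. Its deposited locus, 109405 to 112638, is longer than the annotated gene at 110398 to 112638. NDHE, NDHI and NDHG were close to each other at 29.6-fold, 29.3-fold and 28.7-fold lower, and NDHA and NDHD stood at 20.6-fold and 19.7-fold. NDHJ, NDHK and NDHC, neighbours in another unit, were 18.0-fold, 16.4-fold and 14.9-fold lower. In OX the listed NDH genes of the NDHH to NDHD unit were thus all above those of the NDHC to NDHJ unit, by little for NDHD against NDHJ. NDHF, in neither unit but nearer to NDHD in the genome, was below both units. The difference between the units did not hold in the RNAi tables, where NDHD was below NDHC, NDHK and NDHJ. NDH genes had the highest median of the 6 classes in the RNAi tables, 6.57, with NDHH again highest at 3.84 against 36.0 FPKM, 9.36-fold lower. NDHD was the lowest there, at 9.60 against 37.5 FPKM, 3.90-fold lower. The other 8 lay between, with NDHI at 7.99-fold, NDHE at 7.83-fold, NDHC at 7.22-fold, NDHA at 7.02-fold, NDHG at 6.12-fold, NDHF at 5.82-fold, NDHJ at 5.69-fold and NDHK at 5.16-fold lower.

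**Figure D2:**
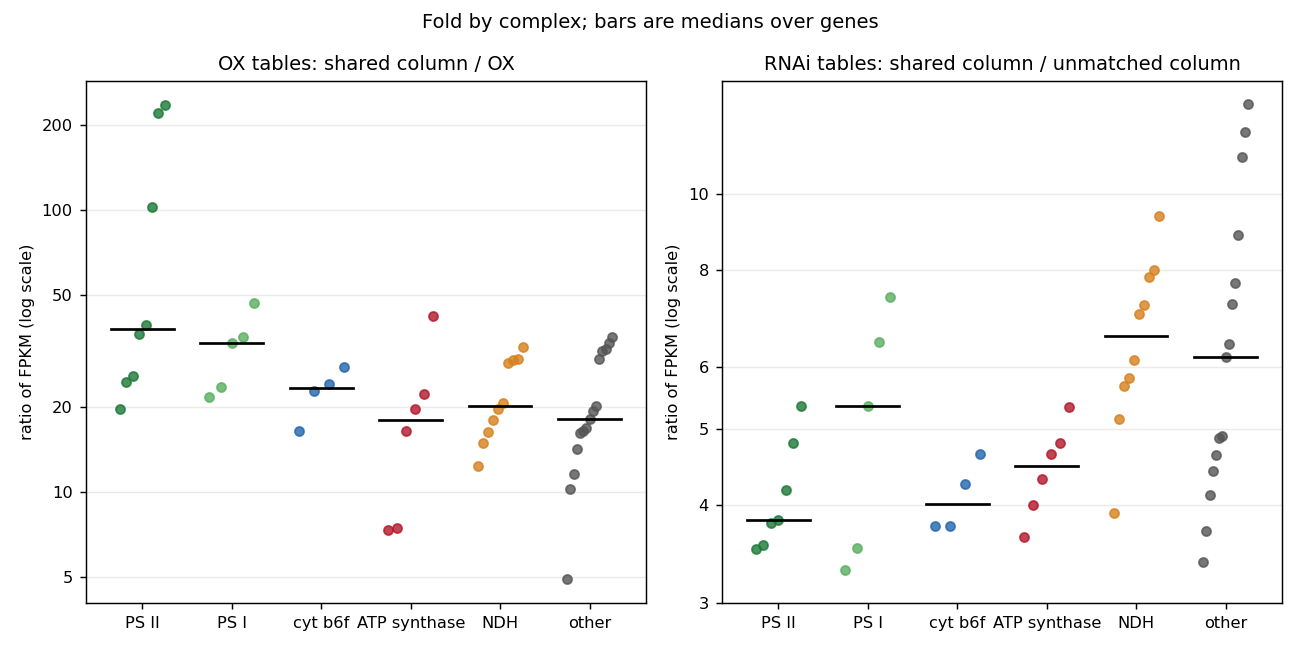
Ratio of FPKM in the shared column over OX (left) or over the unmatched column of the RNAi tables (right), on log axes with different ranges, with 1 point per gene and a bar at the median of each class. Photosystem II has the highest median on the left, 37.7, and the lowest on the right, 3.83, while NDH has 20.1 on the left and the highest median on the right, 6.57.

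The order of the classes differed between the tables. By median fold in OX it ran from photosystem II (37.7) and photosystem I (33.8) through cytochrome b6f (23.5) and NDH (20.1) to the remaining genes (18.2) and the ATP synthase (18.1). By median fold in the RNAi tables it ran from NDH (6.57) and the remaining genes (6.18) through photosystem I (5.36), ATP synthase (4.49) and cytochrome b6f (4.01) to photosystem II (3.83). The ranges of the classes overlapped in both, and genes of 1 genome and 1 unit are not independent, so no difference between classes was tested. The photosystem I medians were the folds of assembly factors placed in that class, YCF4 in OX and YCF3 in the RNAi tables. Its subunit genes PSAA, PSAB and PSAC were 23.5-fold, 21.7-fold and 35.4-fold lower in OX. In the RNAi tables they were 3.52-fold, 3.30-fold and 7.38-fold lower, so the place of this class depends on what is counted in it. The OX order also depended on the genes and scale used. With loci of at least 500 bp alone, 4 photosystem II genes were left with a median of 25.1, below the 28.6 of photosystem I. Without overlapping loci the photosystem II median was 70.8, and with log2(FPKM + 1) the medians of photosystem I and of the remaining genes were 22.2 and 11.4.

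Among the remaining 15 genes, RBCL had the highest level. It encodes the large subunit of Rubisco, which fixes carbon dioxide, and was 23.2 FPKM in OX against 825 FPKM in the shared column, 35.5-fold lower. Its RNAi-table levels were 187 against 773 FPKM, 4.12-fold lower, near the values of the photosystem II genes. ACCD, which encodes a subunit of the plastid acetyl-CoA carboxylase of fatty acid synthesis, was 1.12 against 18.5 FPKM, 16.5-fold lower in OX, and 4.91-fold lower in the RNAi tables. CLPP1, which encodes the catalytic subunit of the stromal Clp protease, was 4.02 against 41.2 FPKM, 10.2-fold lower in OX, and 4.42-fold lower in the RNAi tables. CEMA, which encodes an envelope membrane protein, was 4.22 against 60.0 FPKM, 14.2-fold lower in OX, and 4.63-fold lower in the RNAi tables. MATK, a maturase for intron splicing, was 1.64 against 26.6 FPKM, 16.3-fold lower in OX, and 3.70-fold lower in the RNAi tables. Its deposited locus, 1717 to 4347, equals the annotated TRNK gene in whose intron MATK lies at 2056 to 3570, so reads of that intron and of MATK may not be separated. YCF1.2, a reading frame of 5361 bp with a proposed role in protein import, was 0.757 against 14.7 FPKM, 19.4-fold lower in OX. Its RNAi-table levels were 1.07 against 13.9 FPKM, 13.0-fold lower, the highest fold of all 47 genes.

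The 6 ribosomal protein genes in the set, among them RPS2, RPS4, RPS14 and RPL20, had a median fold of 30.7 in OX and 8.04 in the RNAi tables. In OX they ran from RPS4, at 1.32 against 23.9 FPKM and 18.2-fold lower, to RPS14, at 13.0 against 441 FPKM and 33.8-fold lower. RPL20 was 6.61 against 58.5 FPKM in the RNAi tables, 8.84-fold lower. The 8 chloroplast genes left out of this set had a median fold of 13.5 there and 24.1 in OX. RPS14, which lies in 1 unit with PSAA and PSAB, was 3.38-fold lower in the RNAi tables, at 123 against 415 FPKM, close to those photosystem I genes and below RPS2, RPS4 and RPL20.

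The polymerase genes RPOB, RPOC1 and RPOC2, which encode large subunits of the plastid's own RNA polymerase and are transcribed in that order, differed along their unit. In OX, RPOB was 4.83 against 23.8 FPKM, 4.93-fold lower, the smallest fold of all 48 genes. RPOC1 was 3.31 against 38.6 FPKM, 11.6-fold lower, and RPOC2 was 1.86 against 31.4 FPKM, 16.9-fold lower. The fold was thus larger from the first gene to the last. The order was the same in the RNAi tables, 4.88-fold for RPOB at 4.60 against 22.5 FPKM, 6.18-fold for RPOC1 at 5.83 against 36.0 FPKM, and 7.68-fold for RPOC2 at 3.85 against 29.6 FPKM. RPOB was the member whose OX and RNAi-table folds were nearest to each other.

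Of the other 5 units drawn, the one of NDHC, NDHK and NDHJ also had a larger fold from first to last gene in OX, 14.9, 16.4 and 18.0, but not in the RNAi tables, 7.22, 5.16 and 5.69. The remaining units had no such order in either table. In the unit from RPS2 to ATPA the folds in OX were 20.3, 16.5, 41.9, 22.2 and 19.7 for RPS2, ATPI, ATPH, ATPF and ATPA, with the short ATPH above its neighbours. In the unit from PSBB to PETD they were 19.7, 102, 27.7 and 24.1 for PSBB, PSBH, PETB and PETD, again with the shortest gene highest. PSBZ stood in the same way above PSBD and PSBC, its neighbours upstream. The first of these units had folds of 6.42, 5.34, 4.80, 4.32 and 4.65 in the RNAi tables, and the second 3.55, 4.80, 3.77 and 3.76, in the same gene order. YCF4, CEMA and PETA, in 1 unit, were 33.8-fold, 14.2-fold and 16.5-fold lower in OX and 6.47-fold, 4.63-fold and 4.65-fold lower in the RNAi tables.

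**Figure D3:**
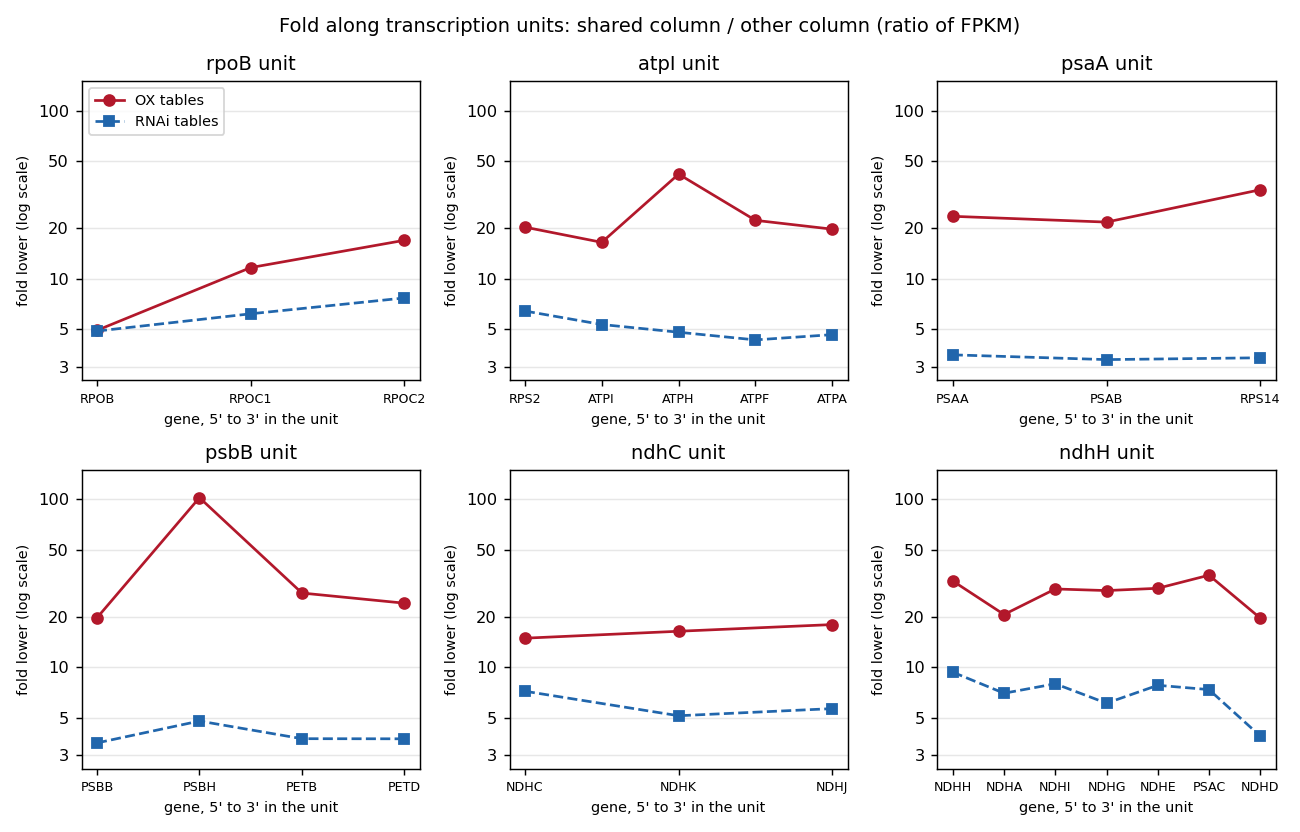
Ratio of FPKM in the shared column over OX (circles) or over the unmatched column of the RNAi tables (squares), on a log axis, for genes of 6 transcription units in the direction of transcription, without error because each group has 1 value. In the rpoB unit the ratio is larger from RPOB to RPOC2 in both tables, 4.93 to 16.9 and 4.88 to 7.68, whereas PSBH at 102 and ATPH at 41.9 stand above their neighbours in OX.

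PSBK, PSBZ and PSBH, the shortest loci, had the largest folds in OX. Of annotated chloroplast genes with spans under 300 bp, 8 were listed and most were not. The short genes compared here are thus only those that passed the authors' limits. The 6 genes with loci under 300 bp had a median fold of 72.1 and a smallest fold of 35.4. The 17 genes from 300 to under 1000 bp had a median of 22.8, and the 25 longer genes 19.7. Among the longer genes, YCF3, with a locus of 1168 bp, was 46.7-fold lower and PSBA, of 1062 bp, 39.2-fold lower. Across the 48 genes Spearman's rho between locus span and fold was -0.61, and across the 35 genes of at least 500 bp it was -0.38, given as a description because these genes share the same libraries and units. Among nuclear genes lower in OX, the 4 with loci under 300 bp had a median fold of 8.35 against 2.49 for the other 741. The 5 short chloroplast genes in the RNAi tables had a median of 4.80, the 17 of middle span 6.42 and the 25 longer ones 4.12, with a rho of -0.30 across 47 genes. The part of locus span in these folds was not tested.

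The level in the shared column was related to the fold in opposite ways in the tables. In OX, genes with a higher level tended to have a larger fold, with Spearman's rho of 0.58 across 48 genes. For the RNAi tables, genes with a higher level tended to have a smaller fold, with rho of -0.47 across 47 genes. With loci of at least 500 bp, 35 genes in each case, rho was 0.41 and -0.60. The level is part of each ratio, which adds to a positive relation, and all genes come from the same libraries. GC content of the locus, between 28.7% and 45.1%, had a rho of 0.19 in OX and -0.29 in the RNAi tables.

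**Figure D4:**
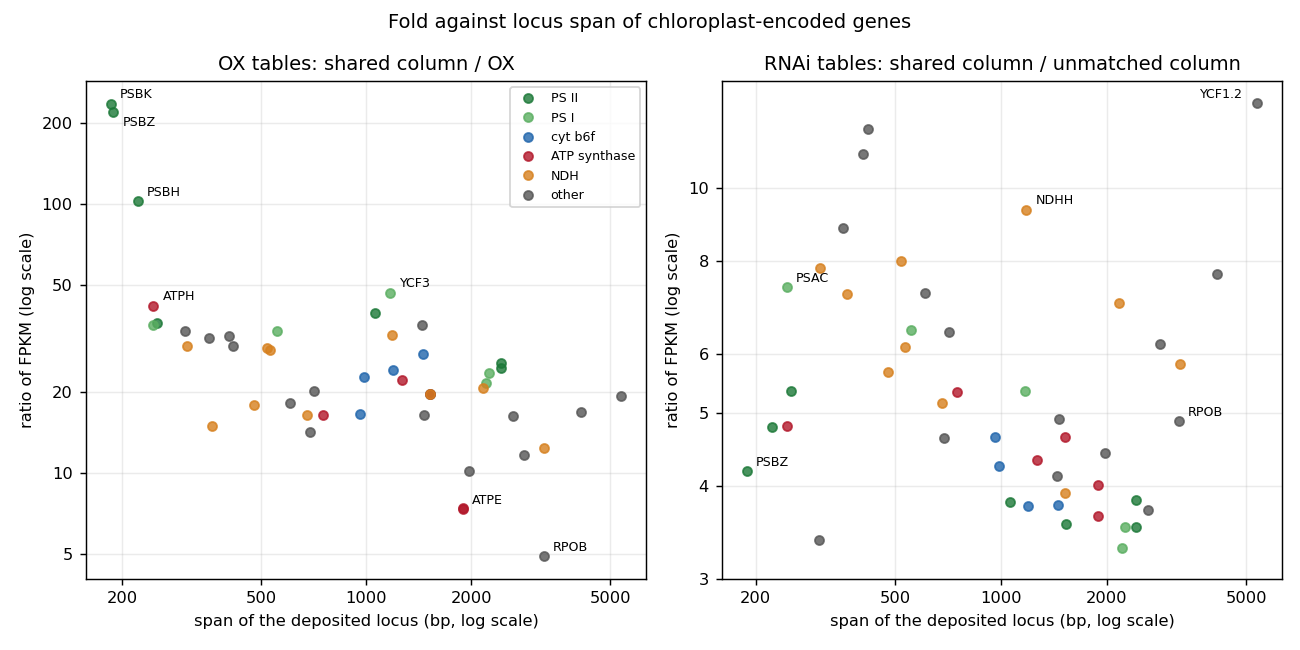
Ratio of FPKM in the shared column over OX (left, 48 genes) or over the unmatched column of the RNAi tables (right, 47 genes) against the span of the deposited locus in bp, both axes logarithmic, 1 point per gene coloured by complex. PSBK, PSBZ and PSBH, of 186 to 222 bp, have ratios of 102 to 235 on the left, and on the right PSBZ, of 189 bp, is at 4.18.

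Of 78 protein-coding gene names annotated in the RefSeq chloroplast genome, 56 were listed and 22 were not. By class, 8 of 15 photosystem II genes, 5 of 7 of photosystem I, 4 of 7 of cytochrome b6f, 6 of 6 of the ATP synthase, 10 of 11 of NDH and 15 of 24 of the remaining genes were listed. Of the 22 that were not, 17 had annotated spans under 300 bp, among them PSBF, PSBJ, PSBL, PETG, PETL, PETN, PSAI and PSAJ. RPS12 was counted there by 1 of its 4 annotated entries, of 114 bp, which is not the whole gene. RPL23, of 282 bp and with 2 copies, was counted there too. NDHB, RPL2, RPS7 and YCF2 lie in the inverted repeat and so have 2 copies, and RPS16 was the 1 other gene. No value was seen for these genes, and absence from a list is no evidence that a gene did not change. PSBK was listed for OX only, and the RNAi tables hold no value for it.

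The nuclear genes for the same complexes were looked up by symbol. Of 10 photosystem II, 14 photosystem I, 3 cytochrome b6f and plastocyanin, 4 ATP synthase and 17 NDH genes found in RefSeq, 0 were listed in OX and 0 in the RNAi tables. In all, 1879 nuclear genes were listed for OX and 1050 in the RNAi tables. How many nuclear genes were tested is not known, so these counts have no share to be set against. Absence from a list is no evidence that a gene did not change. Symbols not found, among them PSBP1, PSAD1 and PSAE1, are not counted. Of 21 light-harvesting genes, LHCB1.2 (AT1G29910) and the neighbouring copy AT1G29920 were 2.25-fold and 2.27-fold lower in OX, with AT1G29910 at 5999 against 13505 FPKM. These are near-identical copies, so the share of reads given to each is uncertain. LHCB1.2 was also lower in the RNAi tables, at 5644 against 13000 FPKM, and LHCB2.4, a related antenna protein gene, was 2.57-fold lower there. Of 5 genes for the Rubisco small subunit and its activase, RBCS-1B was 2.08-fold lower in OX, at 523 against 1087 FPKM, and 0 were listed in the RNAi tables.

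Of 25 nuclear genes for plastid transcription, RPOT3 was listed in OX and 0 in the RNAi tables. RPOT3 encodes the phage-type polymerase of the plastid and was higher in OX, at 7.57 against 3.15 FPKM, while 1134 of the 1966 genes listed for OX were higher. Of 28 genes for plastid RNA processing, 2 were higher in OX and 0 were listed in the RNAi tables. CRS1, which acts in splicing of the ATPF intron, was 14.1 against 5.29 FPKM, 2.66-fold higher, and ATCFM3A, a related splicing factor, 15.9 against 7.84 FPKM, 2.03-fold higher. All 48 chloroplast genes, ATPF among them, were lower in OX, so any gene listed as higher stood on the other side from them. A link between these nuclear genes and ATPF was not tested.

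Some markers of root cells, whose plastids are mostly not green, were listed on the same side as the chloroplast genes. Of 13 root cell markers, 6 were listed in OX, all lower, where 745 of the 1879 listed nuclear genes were lower, with a summed level of 11.0 against 27.8 FPKM and folds from 2.00 to 2.89. The RNAi tables listed 7 of the 13, all lower in the unmatched column, where 673 of the 1050 listed nuclear genes were lower. Their summed level was 10.2 against 27.3 FPKM, with a largest fold of 5.26 for LRX1, a root hair gene. CASP1, of the endodermis, was 5.75 FPKM in OX against 16.6 FPKM in the shared column and made up most of both sums. The other markers listed for OX were at low levels, 0.467 to 2.07 FPKM in OX and 1.22 to 4.14 FPKM in the shared column. Of the listed markers, 0 had a value of 0, but the same is true of all listed genes, whose smallest value was 0.0379 FPKM. This count therefore does not bear on the amount of root tissue. No value was seen for the markers that were not listed. The part of tissue makeup in the chloroplast result was not tested.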

How the data were processed

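Per the submitters' processing notes, the tools were TopHat2 (2.1.1), Cufflinks (2.2.1) and Cuffdiff, and the build was TAIR10. Libraries came from total RNA with a TruSeq kit, per the labels' protocols. The series design speaks of mRNA. Whether polyadenylated RNA was selected is not given in the sources used here, and chloroplast FPKM depend on that step, since most chloroplast transcripts carry no stable poly(A) tail. The deposited tables have Cuffdiff column names, per the file headers. They hold 1 FPKM value per group, a log2 ratio of these values, and a p-value and q-value per gene, as deposited by the authors. The smallest p-value, 5e-05, was given to 45 of 48 chloroplast genes in OX, with a q-value of 0.00015, and to 45 of 47 in the RNAi tables, with a q-value of 0.0002. All 3 libraries of a group enter its value, and nothing in the labels says that they came from separate plants or cultures.

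Folds are ratios of the 2 FPKM values, the shared column over the other, without a pseudocount, computed with Python 3.11.15 and pandas 2.3.3. The log2 ratio in the authors' deposited tables equalled that of the values within 0.001 for every chloroplast gene. In each of the 2 lists with lower genes, 14 nuclear entries have loci typed in another format, and 0 of them are chloroplast genes. The limma test planned for values per library could not be run. Counts, medians and the choice of genes were checked on simulated lists. Loci are TAIR10 coordinates counted from 1. Identifiers of chloroplast genes were matched to the RefSeq annotation of TAIR10.1 by symbol and position, for 47 of 48 genes, of which 40 had the same boundaries. Any listed chloroplast gene, and any listed gene of the nuclear lists, could be named, but some are not reported here by name; counts, sums and medians cover all 48. Classes, transcription units and nuclear lists were chosen with earlier results of these data known, and 25 symbols of the nuclear lists were not found in RefSeq.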

Additional observations from a re-analysis of the deposited data

How the results depend on the processing

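Other settings were folds from log2(FPKM + 1), a minimum of 5 FPKM and a log2 ratio of at least 1.5. Further ones were a q-value of at most 0.01, loci that overlap no other, and loci of at least 500 bp. For both comparisons, the median fold over all chloroplast genes left stayed within 1.5 times the reported value. The number listed as lower also stayed within that range, but this is no check. Every gene was already listed as lower, so each setting could only drop genes. The limit on the log2 ratio dropped no gene. The median ran from 18.1 to 22.5 in OX and from 4.45 to 5.16 in the RNAi tables, and the smallest counts, 35 and 35, came from the limit on span, which leaves fewer genes. Within classes 138 values, counts and medians together, stayed within that range and 6 did not. Photosystem II in OX had a median of 70.8 without overlapping loci and of 25.1 with loci of at least 500 bp, where 4 genes were left in each comparison. With folds from log2(FPKM + 1) the OX median was 22.2 for photosystem I and 11.4 for the remaining genes, because the added 1 weighs most on low values. No paired analysis was possible because the tables hold 1 value per group, and for the same reason no replicate could be left out. Depth is unknown, so the precision of low values, such as those of CCSA and YCF3 in OX, could not be given.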
